A study of Mus musculus with 8 samples.

Results

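The 32 genes described here make, sense, move and export cholesterol, and they were taken by gene symbol from a table of 55487 mouse genes. Of these, 18 encode enzymes of cholesterol synthesis, 5 encode the SREBP transcription factors with their escort and anchor proteins, and 9 act in cholesterol transport, storage and efflux. All 32 were found in the table and all 32 passed the filter on low counts. The study measured RNA of mouse pro-B cells, as the labels call them, an early stage of B cell development in bone marrow. There were 4 libraries with the genotype label CD25_KO and 4 with the label WT. The protein CD25, product of the gene Il2ra, is a chain of the receptor for interleukin-2. The labels give no strain, age, deleted exons, sort or number of animals. The p-values therefore measure only the spread between these libraries, which may be technical in part.

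Cells build cholesterol from acetyl-CoA through mevalonate, farnesyl diphosphate, squalene and lanosterol. When membrane cholesterol is low, the escort protein Scap carries the SREBP proteins out of the endoplasmic reticulum and they switch on the enzyme genes; when it is high, the Insig proteins hold Scap back. Oxidized sterols made when cholesterol is plentiful activate the liver X receptors (LXR), whose known target genes include the exporters Abca1 and Abcg1, the ubiquitin ligase gene Mylip and Srebf1 itself. Dividing lymphocytes need sterols for new membrane.

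Each library held between 43974037 and 57988772 counts. Il2ra, read first because it checks the labels, had 181 ± 43.1 CPM (fragment counts scaled to a common library size) in CD25_KO and 193 ± 35.9 CPM in WT (SD, n = 4 each). By edgeR's quasi-likelihood test its log2 fold change was -0.09 ± 0.19 (SE), with a 95% interval of -0.51 to 0.32 and an adjusted p of 0.849. Counts summed over all exons do not check a deletion of particular exons, so every direction below rests on the label. Among the pro-B markers, Igll1, which encodes a chain of the surrogate light chain, stood at 38.8 to 159 CPM in CD25_KO and 88.6 to 206 CPM in WT. Kit, a receptor carried by pro-B cells, was at 0.70 to 3.20 CPM. Several libraries stood apart. CD25_KO 1 and 3 had the lowest summed level of 15 genes of G2 and mitosis, 2035 and 1410 CPM, against 3197 and 3241 CPM in CD25_KO 2 and 4 and 3370 to 3893 CPM in WT. CD25_KO 2, CD25_KO 4 and WT 2 carried Y-linked RNA at 483 to 505 CPM, and WT 2 also held 60.0 CPM of Xist; the other 5 libraries had at most 2.79 CPM of Y-linked RNA. WT 4 had the highest summed level of erythroid markers, 6736 CPM.

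The cholesterol genes were compared between CD25_KO and WT to ask which of them differ when the label says the receptor chain is missing. None of the 32 passed an adjusted p of 0.05, nor did any of the 18884 genes tested (0%; smallest adjusted p = 0.391, edgeR quasi-likelihood test with Benjamini-Hochberg adjustment). At an unadjusted p under 0.05 there were 7 of the 32 (21.9%), against 12.6% of all genes tested. Of these, 5 were higher in CD25_KO (15.6%, against 5.53% of all genes) and 2 were lower (6.25%, against 7.11%). The groups did not overlap for 4 of the 32 (12.5%), against 6.79% of all genes. CD25_KO lay above WT for 3 of them, Srebf2, Abca1 and Abcg1 (9.38%, against 2.62%), and below WT for Stard4 (3.12%, against 4.17%). Fitted differences were positive for 17 members (53.1%, against 50.4% of all genes) and negative for 15, with a median log2 fold change of 0.039 beside 0.003 over all genes. With upper quartile scaling these signs were 14 positive and 18 negative, and 28.2% of all genes at an unadjusted p under 0.05 were higher in place of 43.8%. In RNA from many cells together, fewer cells of a type and less RNA per cell cannot be told apart.

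**Figure D1:**
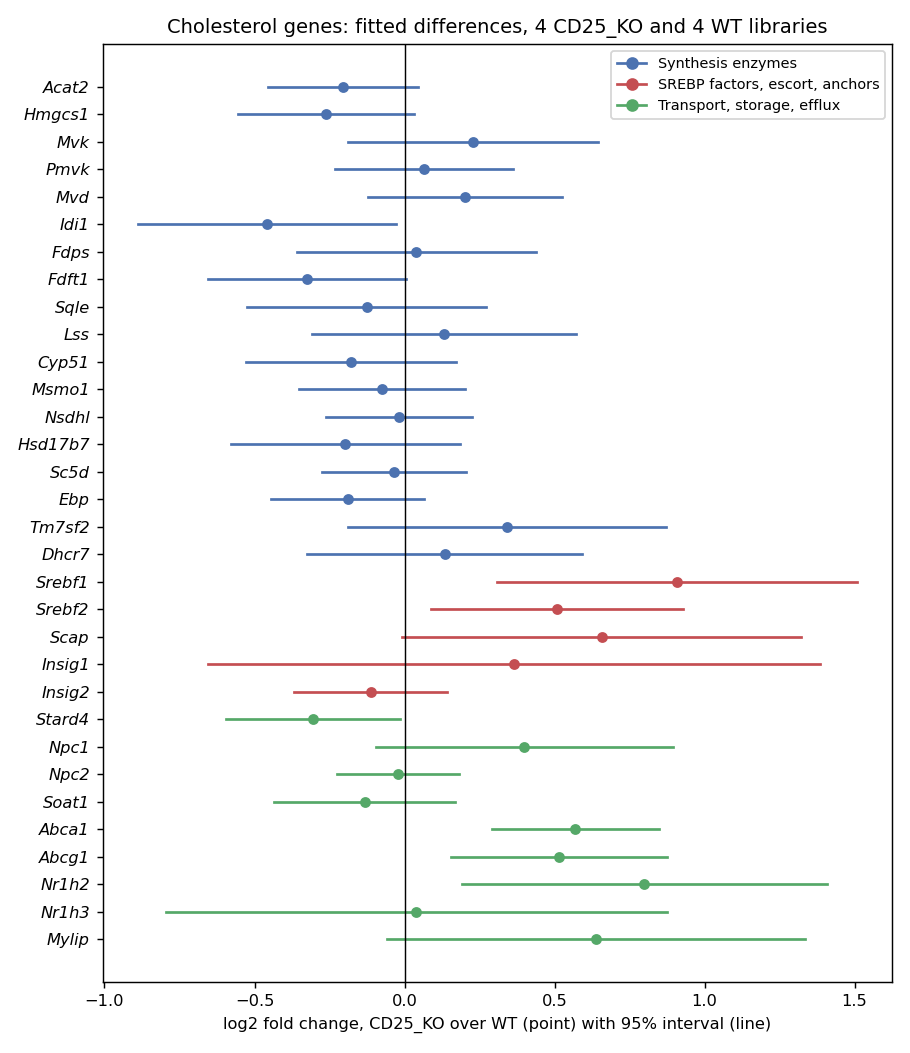
Fitted log2 fold change of CD25_KO over WT for each of the 32 genes (point) with its 95% interval (line), 4 libraries in each group, coloured by role. The enzymes lie around 0 with a median of -0.056, while the points of Srebf1, Srebf2, Scap, Abca1, Abcg1, Nr1h2 and Mylip lie at 0.51 or above.

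The synthesis enzymes had small fitted differences. Their summed level per length was 283 ± 8.4 TPM (counts per exon length, scaled to a common sum) in CD25_KO and 292.6 ± 20.8 TPM in WT (SD, n = 4 each). In CPM the sums were 423.6 ± 30 in CD25_KO and 470.3 ± 19.8 in WT. They ranged from 383.6 to 450.2 CPM in CD25_KO and from 445 to 487.3 CPM in WT. TPM were not TMM-scaled, so sums in TPM and CPM can differ. Of the 18 enzymes, 7 had positive and 11 had negative fitted differences, with a median log2 fold change of -0.056. Of the 18, 1 was at an unadjusted p under 0.05, against 12.6% of all genes tested. The 95% interval lay within 2-fold either way for 18 of 18 enzymes and within 1.5-fold for 13. For the other 5, Mvk, Idi1, Fdft1, Tm7sf2 and Dhcr7, the interval reached past 1.5-fold on a single side. Along the pathway the median was 0.039 for the 7 enzymes up to farnesyl diphosphate, -0.13 for the 3 that make squalene and lanosterol, and -0.056 for the 8 that act after lanosterol.

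Acat2 (ENSMUSG00000023832.14, chr17:12942890-12960747 of GRCm38, minus strand), the cytosolic thiolase that joins acetyl-CoA units, was the most abundant enzyme gene, with 59.7 ± 5.19 TPM in CD25_KO and 64.4 ± 6.51 TPM in WT. It held 74.7, 72.6, 56.9 and 70.4 CPM in CD25_KO 1 to 4, against 79.65, 86.4, 76.05 and 74.5 CPM in WT 1 to 4. The groups overlapped at CD25_KO 1 and WT 4, and the lowest library was CD25_KO 3. Its log2 fold change was -0.21 ± 0.11 (SE; adjusted p = 0.45).

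Idi1 (ENSMUSG00000058258.14, chr13:8885501-8892451, plus strand), the isomerase that makes the starter unit of isoprenoid chains, was the enzyme gene with the smallest p. Its levels in CD25_KO 1 to 4 were 30.3, 34.9, 21.3 and 42.4 CPM, against 49.8, 40.6, 43.4 and 43.3 CPM in WT 1 to 4. CD25_KO 3 was lowest and CD25_KO 4 lay above WT 2, so the groups overlapped. Its log2 fold change of -0.46 ± 0.19 (SE; unadjusted p = 0.0388, adjusted p = 0.391) became -0.21 without CD25_KO 1 and 3. The summed level of the G2 and mitosis genes was also lowest in CD25_KO 3; its part in this difference was not tested.

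Hmgcs1, the synthase that makes the precursor of mevalonate, had 39.8 ± 5.99 CPM in CD25_KO and 47.6 ± 4.21 CPM in WT, a log2 fold change of -0.26 ± 0.13 (adjusted p = 0.42). Fdft1, squalene synthase, had 25.9 ± 4.35 CPM in CD25_KO and 32.45 ± 2.80 CPM in WT, a log2 fold change of -0.32 ± 0.15 (adjusted p = 0.396). Exons of Ctsb, which drew many more counts, lie on the opposite strand and cover 18.8% of the exon bases of Fdft1, and no strand setting is recorded, so its count is uncertain. The remaining 14 enzyme genes had log2 fold changes between -0.20 for Hsd17b7, a sterol reductase, and 0.34 for Tm7sf2, a sterol reductase at 2.21 ± 0.538 TPM in CD25_KO and 1.62 ± 0.398 TPM in WT. Exons of Vps51 on the same strand cover 12.1% of those of Tm7sf2. Mvk and Mvd, a kinase and the decarboxylase of the mevalonate steps, had values of 0.23 ± 0.19 and 0.20 ± 0.14. Nsdhl, a sterol dehydrogenase, showed the least spread of any enzyme gene relative to its mean in each group, with SDs of 2.85% in CD25_KO and 3.87% in WT at 17.8 ± 0.508 CPM in CD25_KO and 18.02 ± 0.697 CPM in WT.

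**Figure D2:**
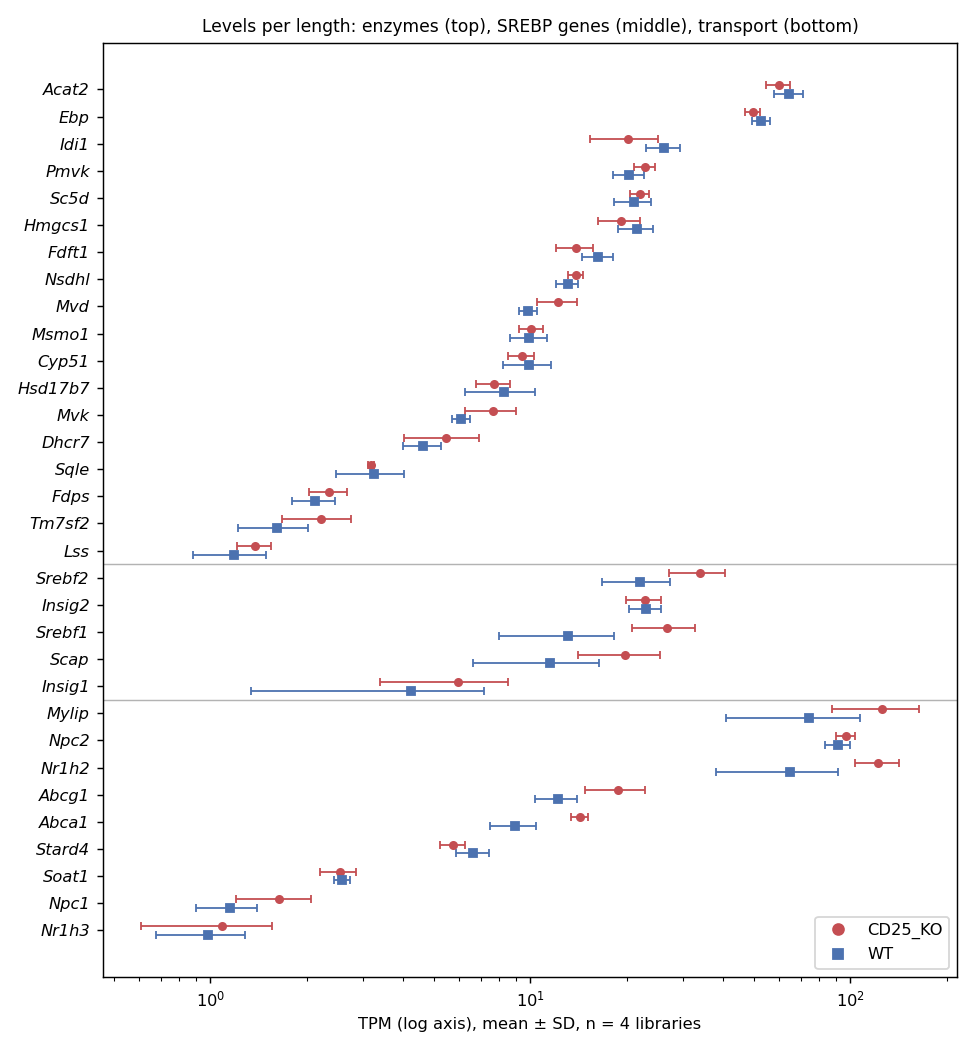
Level per length of each gene in TPM (log axis), mean ± SD of 4 CD25_KO libraries (red circles) and 4 WT libraries (blue squares), ordered within the enzymes, the SREBP genes and the transport genes. Acat2 and Ebp lead the enzymes and Lss is lowest at 1.38 TPM in CD25_KO and 1.19 TPM in WT; most enzyme bars of the groups overlap.

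Promoter sequence was read from RefSeq on GRCm38.p6 for the 250 bases before each annotated start, and 26 of the 32 genes matched with 35 promoters. These were searched on both strands for the sterol regulatory element core TCACNCCAC, which SREBP proteins bind, for the NF-Y box CCAAT, which is known to work beside it, and for the E-box CACGTG. The core stood in 1 of 35 promoters (2.86%), against 1.05% of all 32851 promoters. CCAAT stood in 22 of 35 (62.9%), against 33.8% of all, and in 14 of the 18 enzyme promoters (77.8%). The enzyme promoters of Hmgcs1, which holds the core, and of Idi1, the enzyme gene with the smallest p, are shown 5' to 3' on the gene's strand, with the core and CCAAT (or its reverse complement) in capitals. Matches did not overlap each other, and a match is a description of letters, not a bound site.
Hmgcs1, chr13:119690101-119690350, plus strand: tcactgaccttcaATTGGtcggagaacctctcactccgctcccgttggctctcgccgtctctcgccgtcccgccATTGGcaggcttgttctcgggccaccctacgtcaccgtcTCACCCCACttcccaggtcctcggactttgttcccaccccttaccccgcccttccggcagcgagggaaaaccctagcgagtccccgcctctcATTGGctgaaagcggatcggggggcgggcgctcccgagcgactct
Idi1, chr13:8885356-8885605, plus strand: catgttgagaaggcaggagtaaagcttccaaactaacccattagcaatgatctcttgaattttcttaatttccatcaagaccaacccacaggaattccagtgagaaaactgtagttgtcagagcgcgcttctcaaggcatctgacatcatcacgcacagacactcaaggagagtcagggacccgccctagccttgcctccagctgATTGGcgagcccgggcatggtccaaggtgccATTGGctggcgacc
In Hmgcs1 the core reads TCACCCCAC, 137 bases before the start, between CCAAT boxes on either side. In Idi1 there are 2 CCAAT boxes close to the start and no exact match to the core within this window.

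Among the genes that control the pathway, Srebf1, Scap, Srebf2 and Insig1 had positive fitted differences and Insig2 a negative one. Summed level per length was 109.3 ± 20.8 TPM in CD25_KO and 73.9 ± 15.2 TPM in WT for the SREBP factors, their escort and anchors. In CPM the sums were 286.5 ± 43.4 in CD25_KO and 199.5 ± 51.8 in WT. Of these 5 genes, 4 had positive fitted differences (against 50.4% of all genes tested) and 2 were at an unadjusted p under 0.05 (against 12.6%). Their median log2 fold change was 0.51, and 0.98 without WT 4. Only 2 of the 5 had an interval within 2-fold either way. For Srebf1, Scap and Insig1 the SD was 17.7%, 24.1% and 42.1% of the mean in CD25_KO and 41.9%, 44.5% and 71.2% of the mean in WT.

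Srebf1 (ENSMUSG00000020538.15, chr11:60199089-60222581, minus strand) encodes the SREBP that chiefly drives fatty acid genes. It held 75.45, 53.0, 79.2 and 63.0 CPM in CD25_KO 1 to 4, against 30.5, 21.9, 34.6 and 57.3 CPM in WT 1 to 4. WT 4 lay above CD25_KO 2, and the other 3 WT libraries lay below all CD25_KO libraries. At 0.91 ± 0.27 (SE; 95% interval from 0.31 to 1.51; unadjusted p = 0.00717, adjusted p = 0.391), its log2 fold change was the highest fitted value of the 32 genes. Counts are summed over the gene, so the isoforms SREBP-1a and SREBP-1c were not told apart.

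Srebf2 (ENSMUSG00000022463.8, chr15:82147181-82205379, plus strand) encodes the SREBP that chiefly drives cholesterol synthesis and had the highest mean TPM of the 5 over all 8 libraries, with 34.0 ± 6.76 TPM in CD25_KO and 22.1 ± 5.27 TPM in WT. In WT alone Insig2 was as high, at 22.8 ± 2.85 TPM in CD25_KO and 23.0 ± 2.62 TPM in WT. Its CPM in CD25_KO 1 to 4 were 103.9, 99.35, 133 and 101, against 83.9, 50.1, 78.9 and 94.6 in WT 1 to 4. Every CD25_KO library lay above every WT library, with 99.35 CPM in CD25_KO 2 next to 94.6 CPM in WT 4. The log2 fold change was 0.51 ± 0.19 (SE; 95% interval from 0.09 to 0.93; unadjusted p = 0.0226, adjusted p = 0.391). The promoter of Srebf2 is shown because the gene is both the controller of the enzymes and free of overlap between groups. Capitals mark the reverse complement of CCAAT, which stands 135 bases before the start. The exact core TCACNCCAC was not found in these letters. Looser forms of the core were not searched, so their absence is not shown.
Srebf2, chr15:82147019-82147268, plus strand: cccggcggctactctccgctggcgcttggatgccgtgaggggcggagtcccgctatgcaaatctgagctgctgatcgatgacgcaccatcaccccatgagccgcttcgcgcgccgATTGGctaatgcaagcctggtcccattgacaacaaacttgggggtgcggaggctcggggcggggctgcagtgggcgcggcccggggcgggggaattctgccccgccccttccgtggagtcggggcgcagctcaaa

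Scap (ENSMUSG00000032485.14, chr9:110333288-110384950, plus strand), the escort, held 76.5, 47.8, 81.2 and 57.1 CPM in CD25_KO 1 to 4, against 39.9, 23.8, 35.35 and 67.5 CPM in WT 1 to 4. WT 4 lay above CD25_KO 2 and 4. Its fitted log2 fold change was 0.66 ± 0.30 (SE; unadjusted p = 0.0521, adjusted p = 0.396). Insig1, an anchor whose gene is itself a known SREBP target, was the most variable of the 5, with 8.28 ± 3.49 CPM in CD25_KO and 6.43 ± 4.57 CPM in WT; CD25_KO 1 at 13.3 CPM and WT 4 at 13.1 CPM were the highest of their groups. Its log2 fold change of 0.36 ± 0.46 had a 95% interval from -0.66 to 1.38. Insig2, the other anchor, had 35.6 ± 3.04 CPM in CD25_KO and 38.5 ± 3.29 CPM in WT, a value of -0.11 ± 0.11.

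Transport, storage and efflux genes summed to 389.2 ± 61.4 TPM in CD25_KO and 262.9 ± 55.6 TPM in WT. In CPM they summed to 766.8 ± 71.6 in CD25_KO and 589.2 ± 103.1 in WT. Most of the difference in summed TPM lay in Nr1h2 and Mylip. Nr1h2 had 122.5 TPM in CD25_KO and 64.8 TPM in WT, and Mylip had 125.7 TPM in CD25_KO and 74.1 TPM in WT. Of the 9 genes, 6 had positive and 3 had negative fitted differences, against 50.4% positive among all genes tested, and 4 were at an unadjusted p under 0.05 (against 12.6%). The median log2 fold change was 0.40, and 0.26 without CD25_KO 1. The highest fitted values were those of the exporters, of Nr1h2 and of Mylip, and those of Stard4, Npc2 and Soat1 were negative.

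Abca1 (ENSMUSG00000015243.4, chr4:53030787-53159895, minus strand), which loads cellular cholesterol onto lipid-poor apolipoproteins, had the smallest p of the 32 genes. It held 62.3, 68.3, 67.6 and 67.9 CPM in CD25_KO 1 to 4, against 48.55, 39.05, 38.9 and 52.9 CPM in WT 1 to 4. The groups did not overlap, and the spread within CD25_KO was 4.24% of the mean, against 15.6% in WT. The log2 fold change was 0.57 ± 0.12 (SE; 95% interval from 0.29 to 0.85; unadjusted p = 0.00112, adjusted p = 0.391), a ratio of 1.48. Macrophages are known for high Abca1. Fitted differences were negative for 9 of 10 tested monocyte and macrophage markers, against 49.6% of all genes tested. Their summed level ran from 36.9 to 170.0 CPM in CD25_KO and from 129.1 to 232.9 CPM in WT (exact permutation p = 0.314, adjusted p = 0.6 over 14 lists), and no marker of that list was at 0 in all libraries. The part of such cells in the Abca1 difference was not tested. Abca1's promoter is shown as that of the gene with the smallest p, with the E-box CACGTG in capitals, 147 bases before the start. That E-box stood in 6 of the 35 promoters (17.1%), against 6.02% of all. The LXR element DR4 was searched only as AGGTCA given again after 4 free bases. These letters were found in 0 of the 35 and in 0.0152% of all promoters. With so rare a match, the search cannot show whether looser forms of the element are present.
Abca1, chr4:53159896-53160145, minus strand: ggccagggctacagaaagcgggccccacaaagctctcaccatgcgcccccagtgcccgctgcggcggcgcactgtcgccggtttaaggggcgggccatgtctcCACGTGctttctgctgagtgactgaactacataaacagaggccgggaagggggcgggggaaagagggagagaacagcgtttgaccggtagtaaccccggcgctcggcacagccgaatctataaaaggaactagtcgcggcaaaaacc

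Abcg1 (ENSMUSG00000024030.7, chr17:31057675-31117988, plus strand), which passes cholesterol to mature lipoprotein particles, held 62.5, 50.04, 74.1 and 59.9 CPM in CD25_KO 1 to 4. In WT 1 to 4 it held 43.0, 32.8, 48.3 and 48.4 CPM. All CD25_KO libraries lay above all WT libraries, with CD25_KO 2 and WT 4 nearly touching. Its fitted log2 fold change was 0.52 ± 0.16 (SE; 95% interval from 0.15 to 0.88; unadjusted p = 0.00992, adjusted p = 0.391).

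Nr1h2 (ENSMUSG00000060601.13, chr7:44549616-44553951, minus strand) encodes LXR beta, the widely expressed LXR. Its CPM in CD25_KO 1 to 4 were 189.8, 154, 203 and 191, against 97.5, 56.5, 101 and 169 in WT 1 to 4. WT 4 lay above CD25_KO 2, and WT 1 to 3 lay far below all CD25_KO libraries. The log2 fold change was 0.80 ± 0.27 (SE; 95% interval from 0.19 to 1.41; unadjusted p = 0.0151, adjusted p = 0.391). Nr1h3, which encodes LXR alpha, was near the lower end of what was measured, with 1.24 ± 0.567 CPM in CD25_KO and 1.21 ± 0.421 CPM in WT. Per length, Nr1h2 stood at 122.5 TPM in CD25_KO and 64.8 TPM in WT, while Nr1h3 stood at 1.08 TPM in CD25_KO and 0.98 TPM in WT.

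Mylip (ENSMUSG00000038175.10, chr13:45389742-45412022, plus strand), the ligase that lowers lipoprotein uptake, had the highest mean TPM of the transport genes over all 8 libraries, with 125.7 ± 37.9 TPM in CD25_KO and 74.1 ± 33.4 TPM in WT. In WT alone Npc2 was higher, at 96.9 ± 6.49 TPM in CD25_KO and 91.5 ± 8.33 TPM in WT. It held 245, 126, 192 and 164.5 CPM in CD25_KO 1 to 4, against 101, 67.25, 103 and 197 CPM in WT 1 to 4. WT 4 lay above 3 of the 4 CD25_KO libraries. The fitted log2 fold change was 0.64 ± 0.31 (SE; unadjusted p = 0.0688, adjusted p = 0.408).

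Stard4 (ENSMUSG00000024378.9), a cytosolic sterol carrier and known SREBP target, was the member with CD25_KO wholly below WT. Its levels were 12.7, 16.3, 14.4 and 14.5 CPM in CD25_KO 1 to 4, against 19.1, 18.95, 16.4 and 17.1 CPM in WT 1 to 4. CD25_KO 2 at 16.3 CPM and WT 3 at 16.4 CPM nearly touched. The log2 fold change was -0.30 ± 0.13 (SE; 95% interval from -0.59 to -0.015; unadjusted p = 0.0413, adjusted p = 0.391). Npc2, the soluble carrier of the lysosome, was level, with 237 ± 7.62 CPM in CD25_KO and 241 ± 22.6 CPM in WT, a log2 fold change of -0.022 ± 0.090. Its membrane partner Npc1 had 8.30 ± 1.96 CPM in CD25_KO and 6.29 ± 1.24 CPM in WT, a value of 0.40 ± 0.22. Exons of Rmc1, which drew many more counts, lie on the opposite strand and cover 4.5% of the exon bases of Npc1. With no strand setting recorded, the Npc1 count is uncertain. Soat1, which esterifies cholesterol for storage, had 11.2 ± 1.22 CPM in CD25_KO and 12.2 ± 0.680 CPM in WT, a value of -0.13 ± 0.13.

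**Figure D3:**
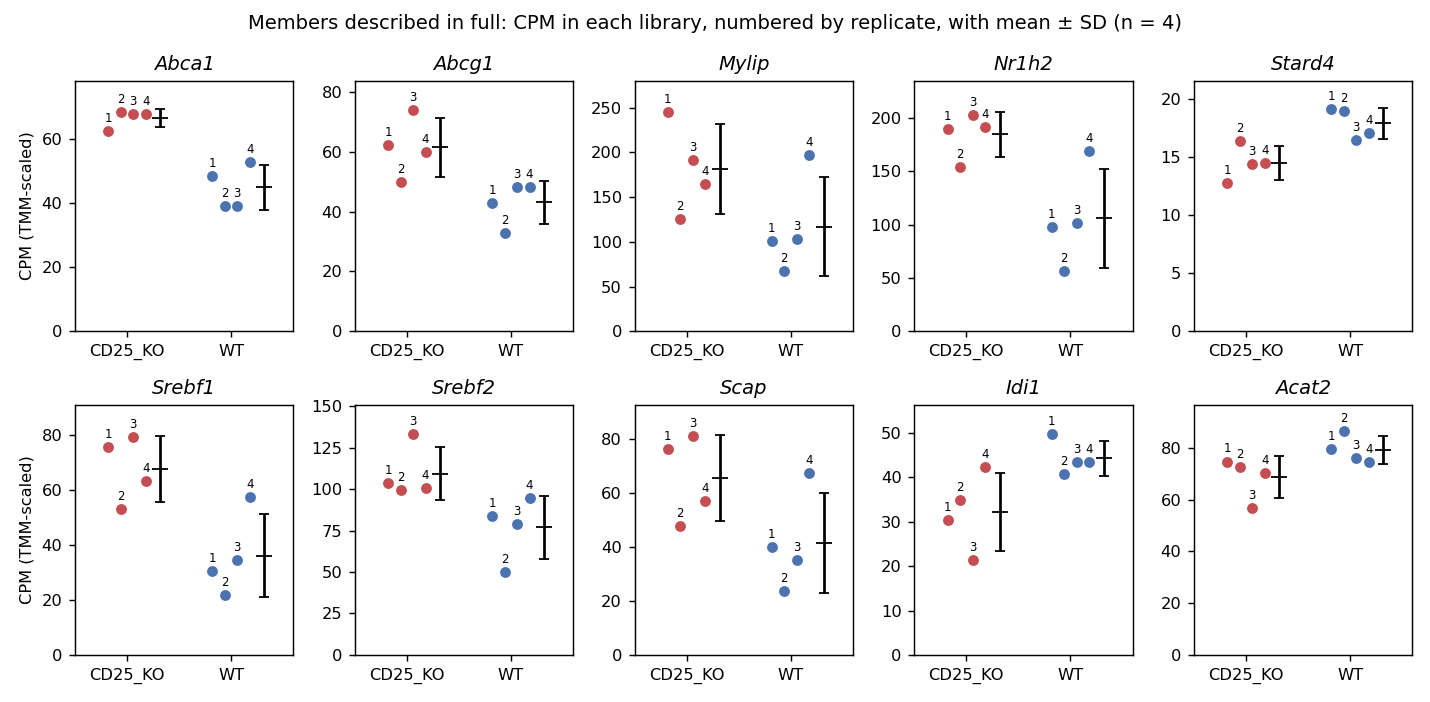
CPM in each library, numbered by replicate, for the 10 genes described with all their values, CD25_KO (red) left of WT (blue), with mean ± SD (n = 4). Abca1, Abcg1 and Srebf2 have all CD25_KO points above all WT points and Stard4 has them below; in Nr1h2, Srebf1, Scap and Mylip the point of WT 4 lies among those of CD25_KO.

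Several members shared an order across the WT libraries. WT 2 was the lowest of all 8 libraries for 12 members (37.5%, against 25.3% of all genes tested) and the highest of all 8 for 8 others (25%, against 16.2%). WT 4 was the highest WT library for 10 members (31.2%, against 28.8%). WT 2 lowest of all and WT 4 highest of WT held together for 8 members (25%, against 17.6%), Tm7sf2, Srebf1, Srebf2, Scap, Insig1, Abcg1, Nr1h2 and Mylip, among which Tm7sf2 is the lone enzyme. The median deviation of the SREBP factors, escort and anchors from their mean over 8 libraries was 0.61, -0.024, 0.56 and 0.19 (log2) in CD25_KO 1 to 4. In WT 1 to 4 it was -0.27, -1.03, -0.46 and 0.26. For the enzymes the same measure stayed between -0.12 and 0.043 in CD25_KO and between -0.014 and 0.14 in WT.

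Other gene lists moved across the same libraries. Immediate early and heat shock genes, which respond fast to signals, are given first. Their median deviation was 0.57, -0.057, 0.92 and -0.12 in CD25_KO 1 to 4 and -0.38, -0.55, -0.76 and 0.17 in WT 1 to 4. All 15 tested genes of that list had positive fitted differences (against 50.4% of all genes tested), with a median log2 fold change of 0.76, and their summed level ran from 1862 to 3386 CPM in CD25_KO and from 1655 to 1896 CPM in WT (exact permutation p = 0.0857, adjusted p = 0.24 over 14 lists). Erythroid markers summed to 443 to 2040 CPM in CD25_KO and 2625 to 6736 CPM in WT, and those of natural killer cells to 8.2 to 28 CPM in CD25_KO and 30.8 to 42.8 CPM in WT. The G2 and mitosis genes summed to 1410 to 3241 CPM in CD25_KO and 3370 to 3893 CPM in WT. For each of these 3 lists the exact permutation p was 0.0286, the smallest that 4 against 4 libraries allow, and the adjusted p was 0.133 over 14 lists. Fitted differences were negative for 8 of 9 tested erythroid markers, 7 of 8 natural killer markers and 14 of 15 genes of G2 and mitosis, against 49.6% of all genes tested, and no gene of these lists was at 0 in all libraries. The part of these lists in the differences of the cholesterol genes was not tested.

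**Figure D4:**
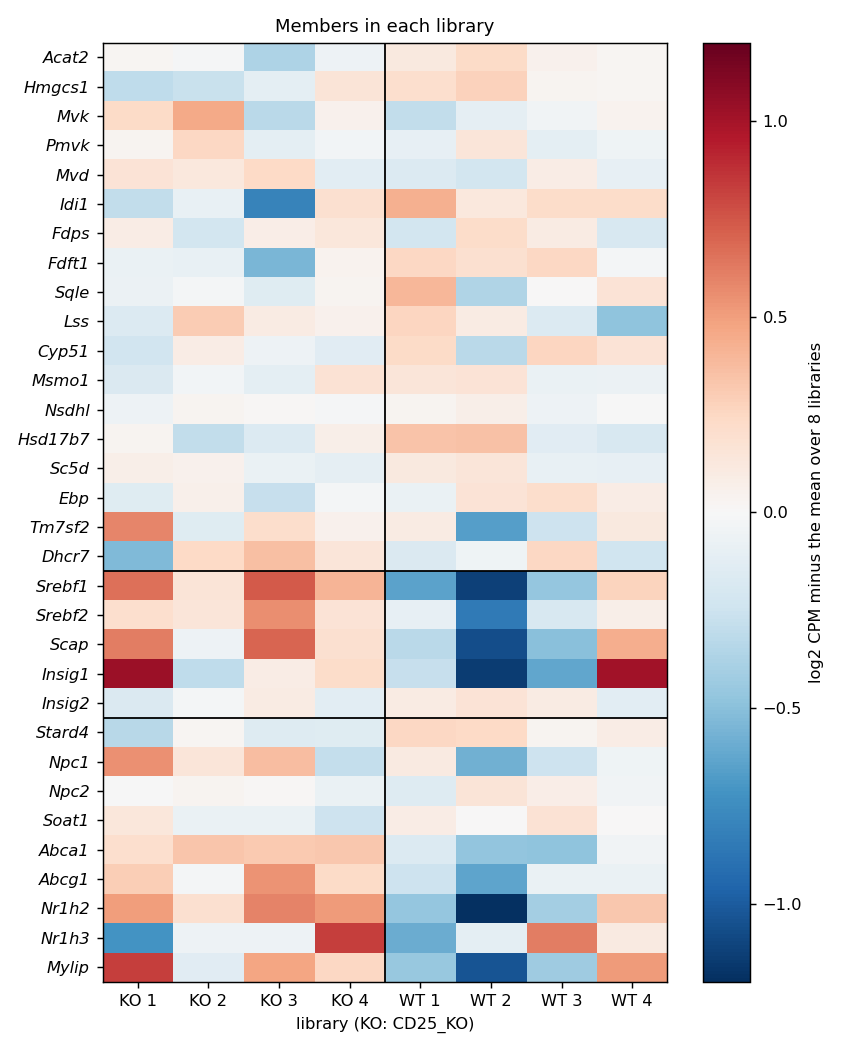
Deviation of each gene's log2 CPM from its mean over the 8 libraries (colour scale, log2), CD25_KO 1 to 4 left of WT 1 to 4, with lines between the enzymes, the SREBP genes and the transport genes. In the SREBP rows WT 2 is the darkest blue column, at a median of -1.03, while the enzyme medians stay near 0 in all libraries.

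Base composition was a further property on which these genes differ. The GC content of the longest transcript was 58.4% for Srebf1, 57.9% for Srebf2, 59.1% for Scap and 60.6% for Nr1h2, against 47.5% for Abca1, 52.7% for Abcg1 and 49.6% for Mylip. With the GC trend of each library removed, the log2 fold change was 0.69 for Srebf1, 0.29 for Srebf2, 0.41 for Scap and 0.51 for Nr1h2. Those of Abca1, Abcg1 and Mylip were then 0.60, 0.47 and 0.64, close to the values without that step. Srebf2 thereby moved to an unadjusted p of 0.0663, and 6 members were at an unadjusted p under 0.05 (18.8%, against 11.8% of all genes).

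Whether any member passed changed with the libraries compared. Without WT 4, 3 members passed at an adjusted p of 0.0493, all higher in CD25_KO: Srebf1 with a log2 fold change of 1.22, Nr1h2 with 1.12 and Abca1 with 0.66. WT 4 was the highest WT library for these 3 and for Mylip, so leaving it out raises their fitted differences. In that fit 363 genes passed (1.86% of those tested), 358 higher and 5 lower in CD25_KO, and 11 members were at an unadjusted p under 0.05 (34.4%, against 21.9% of all genes). With the GC trend removed as well, 783 genes passed (4.01%), 722 higher and 61 lower in CD25_KO. Among them were Srebf1 at 0.87, Nr1h2 at 0.65, Abca1 at 0.69 and Mylip at 1.01. In this second fit 9 members were at an unadjusted p under 0.05 (28.1%, against 21.5%). With WT 4 left out and Y-linked RNA as a term in the model, a fit chosen after seeing the data, 3112 genes passed (16%). Of these genes, 2324 were higher and 788 lower in CD25_KO. The 8 members among them were all higher, and none was an enzyme: Srebf1, Srebf2, Scap, Insig1, Abca1, Abcg1, Nr1h2 and Mylip. Their adjusted p lay between 0.00155 and 0.0218. At an unadjusted p under 0.05 that fit had 15 members (46.9%, against 30.4% of all genes). The Y-linked term with all 8 libraries also gave 15 (against 24.6%), with no gene passing. DESeq2 on all 8 libraries called 6 genes (0.0318%), none of them a member, and had 10 members at an unadjusted p under 0.05 (31.2%, against 14% of all genes).

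Leaving out CD25_KO 1 and 3 instead gave 1 member at an unadjusted p under 0.05 (3.12%, against 2.36% of all genes), which was Abca1 at a log2 fold change of 0.59. In that fit Nr1h2 had 0.69, Srebf1 0.67, Srebf2 0.37, Abcg1 0.34, Scap 0.32, Mylip 0.30 and Insig1 -0.0054. Within the 2 CD25_KO and 3 WT libraries with little Y-linked RNA, a choice also made after seeing the data, the values were 0.50 for Abca1, 0.59 for Abcg1, 0.95 for Srebf1 and 0.71 for Nr1h2. Among the libraries with Y-linked RNA only WT 2 is WT, so no such value was computed there. Abca1 was at an unadjusted p under 0.05 with all 8 libraries and under each of the 21 alternatives, with log2 fold changes from 0.49 to 0.69.

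**Figure D5:**
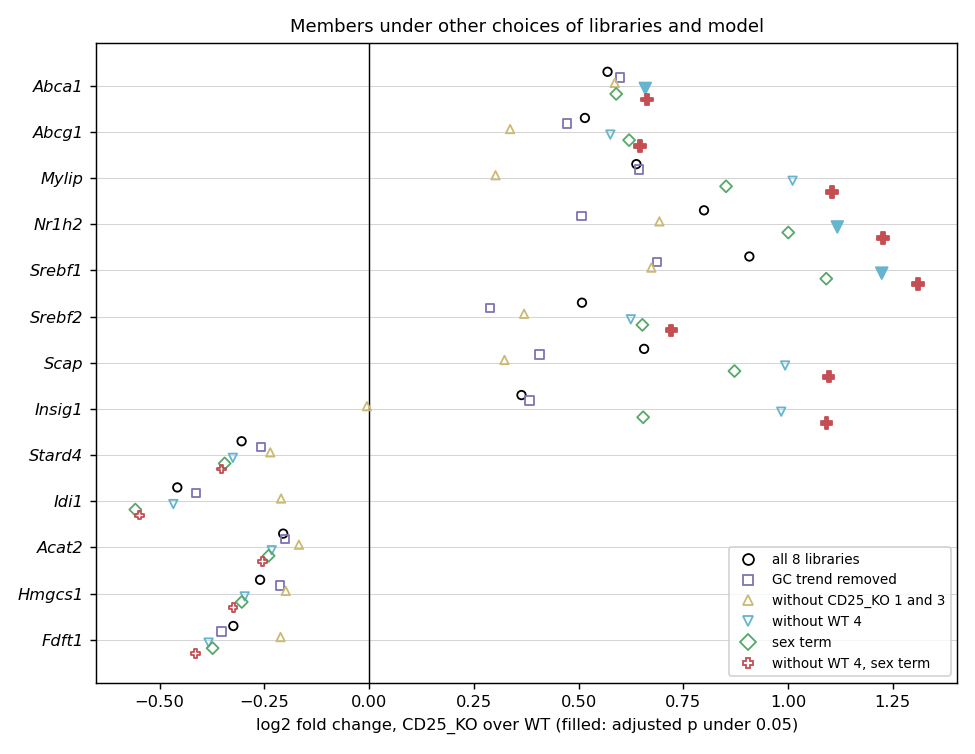
Log2 fold change of CD25_KO over WT for 13 genes with all 8 libraries and under 5 other choices of libraries or model; filled symbols have an adjusted p under 0.05. Abca1 keeps nearly the same value under all of them, Mylip, Scap and Insig1 spread the most, and the filled symbols all belong to fits without WT 4.

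Other genes of sterol handling were read from a list of 19, of which 18 were tested. None passed, 1 was at an unadjusted p under 0.05 (against 12.6% of all genes tested), 13 had positive and 5 had negative fitted differences, and the median log2 fold change was 0.22. The gene at that p was Cyp27a1, a mitochondrial sterol hydroxylase that makes oxysterols, with 14.5, 9.26, 13.6 and 10.7 CPM in CD25_KO 1 to 4, against 6.86, 4.05, 7.21 and 7.67 CPM in WT 1 to 4. Its groups did not overlap and its log2 fold change was 0.90 ± 0.23 (SE; unadjusted p = 0.00336, adjusted p = 0.391). Groups did not overlap for 2 of the 18 tested genes of this list, against 6.79% of all genes tested. CD25_KO lay above WT for Cyp27a1 and below WT for the other. Abca7, a transporter related to Abca1, came next by p with 0.46 ± 0.23 (adjusted p = 0.416). Among known LXR targets outside the 32 genes, named here after their values were seen, Lpcat3, which remodels phospholipids, had 0.21 ± 0.12, and Arl4c, a small GTPase, had 0.12 ± 0.35 at 1.94 ± 0.876 CPM in CD25_KO and 1.79 ± 0.425 CPM in WT.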

How the data were processed

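Values are raw fragment counts per gene that the authors deposited for 8 libraries, 4 per group. The counter was featureCounts 2.0.1 over the exons of GENCODE M25, per the file headers, with every alignment of multi-mapping fragments counted and no strand setting recorded. Genes with overlapping exons or close copies are therefore uncertain. STAR 2.7.7a and GATK 4.1.9.0 are named in the submitters' processing notes, without their roles. Summed exon length, an annotation in the deposited table (unit: other), entered TPM only. No column belonged to another sample (0).

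Names, positions and GC came from GENCODE M21 on GRCm38 (55227 identifiers named, 260 not). Genes passing filterByExpr (18884) were scaled with TMM factors and tested with edgeR 4.0.16 in R 4.3.3 (robust quasi-likelihood fit, two-sided, genotype as the only term, Benjamini-Hochberg adjustment over all of them). SE were derived from the F value. CPM are TMM-scaled. The fit was tested on simulated data. Marker lists were summed per library and compared by exact permutation, two-sided.

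The genes and lists were chosen with earlier results of these data known. Described with all values were the 8 members with the smallest unadjusted p and any other without overlap between groups. The gene with the highest mean TPM per role was described too. From the lists of other sterol handling and fatty acid synthesis, the 2 genes with the smallest p were named, beside those marked as picked later. The pro-B markers Igll1 and Kit are not the 2 of their list with the smallest p. No gene was named from the remaining lists. Alternatives were DESeq2 1.42.0 and its size factors, upper quartile factors, limma-voom (limma 3.58.1) with quality weights, no filter or 1 CPM in 4 libraries, a replicate block, a GC trend removed (lowess span 0.5), libraries left out, and Y-linked RNA above 5 CPM as a term. No library repeats another: between replicates, chi-square per degree of freedom was 29.5 or more.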

Additional observations from a re-analysis of the deposited data

Results flagged for a closer look

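Among the 64 combinations of a member and a group, 3 held a library far from the other 3 by Dixon's 95% criterion, which chance meets in about 1 in 20. Fdps, farnesyl diphosphate synthase, had 3.74 CPM in CD25_KO 2, while the other CD25_KO libraries had 4.61 to 4.78 CPM. Exons of Gm43738 on the same strand cover 26.7% of the exon bases of Fdps, so the Fdps count is uncertain. Srebf2 had 133 CPM in CD25_KO 3 and 99.35 to 103.9 CPM in the other CD25_KO libraries. Abca1 had 62.3 CPM in CD25_KO 1 and 67.6 to 68.3 CPM in the other CD25_KO libraries. For Srebf2 the library that stood apart was the one farthest from WT, and its log2 fold change without CD25_KO 3 was 0.40. For Abca1 it was the one nearest to WT, and the log2 fold change without CD25_KO 1 was 0.59.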

How the results depend on the processing

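Of 672 member values under 21 alternatives, 618 kept their direction and side of the threshold, 15 passed it in fits without WT 4, and 39, of 10 members, changed sign without passing. With all 8 libraries 0 genes and 0 members passed and 7 members were at an unadjusted p under 0.05. Leaving out each library in turn gave 0 to 363 genes and 0 to 3 members passing, 4 to 11 members at an unadjusted p under 0.05, and medians of -0.092 to 0.017 for the enzymes and 0.38 to 0.98 for the SREBP genes and 0.26 to 0.53 for the transport genes. The 4 came without CD25_KO 3, the 0.017 without WT 2 the 0.26 without CD25_KO 1, and the highest counts without WT 4. DESeq2 called 6 genes and limma-voom 0. Upper quartile factors gave an enzyme median of -0.15. Without CD25_KO 1 and 3, 1 member was at an unadjusted p under 0.05. Without WT 4 and with the GC trend removed 783 genes and 4 members passed. With the Y-linked term 15 members were at an unadjusted p under 0.05; without WT 4 as well, 3112 genes and 8 members passed, 15 were at an unadjusted p under 0.05, and the SREBP median was 1.09. Genes at an unadjusted p under 0.05 numbered 2388, against 1195 and 1205 without CD25_KO 1 or 3, 1208 and 4277 without WT 2 or 4, 497 without CD25_KO 1 and 3, 3758 by limma-voom, 4646 with the Y-linked term, and 4199 and 5935 for the combined fits. The causes were not tested.

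Signs changed as follows (log2). Upper quartile factors gave Pmvk -0.031, Fdps -0.063 and Nr1h3 -0.043. No filter gave Nsdhl 0.021, Sc5d 0.0016 and Npc2 0.016; limma-voom gave Nsdhl 0.0016. GC removal gave Pmvk -0.15, Mvd -0.10, Nsdhl 0.022, Sc5d 0.013 and Nr1h3 -0.14, and without WT 4 as well Pmvk -0.23, Mvd -0.20, Fdps -0.037, Nsdhl 0.012 and Nr1h3 -0.19. Without CD25_KO 1 and 3, Fdps was -0.043, Msmo1 0.0098 and Insig1 -0.0054. The Y-linked term gave Nr1h3 -0.11, and without WT 4 Fdps -0.023, Lss -0.016 and Nr1h3 -0.069. Libraries with little Y-linked RNA gave Nsdhl 0.018, Sc5d 0.050, Npc2 0.075 and Nr1h3 -0.44. Leaving out each library gave Nsdhl -0.040 to 0.035, Npc2 -0.075 to 0.061, Nr1h3 -0.31 to 0.28, Fdps -0.024 to 0.16 and Sc5d -0.084 to 0.040.

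Same-numbered libraries correlated at 0.098, 0.32, 0.20 and -0.11. CD25_KO 2 and 3 correlated best with the WT library of their own number, and CD25_KO 1 and 4 did not. These values do not settle whether the replicate numbers pair the libraries. A replicate block gave 0 genes and 0 members passing and 8 members at an unadjusted p under 0.05, with 3057 genes at that p. Depth limits Nr1h3 most, at a mean of 63.0 counts per library.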

Other observations

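Fatty acid synthesis shares the SREBP factors with the cholesterol pathway, and 13 of 14 genes listed for it were tested. None passed an adjusted p of 0.05 (edgeR quasi-likelihood test); 3 were at an unadjusted p under 0.05 (against 12.6% of all genes tested), 2 higher and 1 lower in CD25_KO, and the median log2 fold change was 0.16 with 10 positive and 3 negative values. Elovl6, an elongase of long fatty acids and the gene of that list with the smallest p, had 29.0 ± 3.35 CPM in CD25_KO and 37.8 ± 3.30 CPM in WT, a log2 fold change of -0.38 ± 0.12 (SE; unadjusted p = 0.0122). Aacs, which activates acetoacetate for lipid synthesis, had 39.0 ± 7.33 CPM in CD25_KO and 23.0 ± 9.68 CPM in WT, a log2 fold change of 0.76 ± 0.28 (unadjusted p = 0.0234). Fasn and Scd1 were picked as main enzymes of the pathway after their values were seen. Fasn, fatty acid synthase, had 26.2 ± 5.17 CPM in CD25_KO and 22.6 ± 5.02 CPM in WT. Scd1, a desaturase, had 207 ± 10.4 CPM in CD25_KO and 201 ± 43.2 CPM in WT. WT 4 was the lowest library for both.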
